A study of Mus musculus with 7 samples.

Results

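Immediate early genes and cell stress genes were examined in sorted microglia, the macrophages that live in the brain, of C57BL/6 mice bearing 005 tumours, implanted cells that model glioblastoma. The 37 genes were set by name: AP-1 subunits, other early transcription factors, feedback regulators, arrest and signalling genes, and chaperones. All 37 had a row in the deposited table of 24537 genes, and all 37 reached 1 FPKM (fragments scaled to transcript length and library size) in at least 2 of the 7 libraries, as did 13028 genes in all. Microglia were taken as cells with intermediate CD45 and with CX3CR1, on day 35 of tumour growth. The depletion group (3 libraries) had received anti-CTLA4, which blocks a checkpoint receptor of T cells, and antibody depletion of CD4 T cells. The second group (2 libraries) had received anti-CTLA4 alone, and the third (2 libraries) IgG as control. All mice carried the tumour, so no group shows microglia of a healthy brain. The labels do not say that libraries came from separate animals, so p-values measure only the spread between libraries, which may be technical.

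Immediate early genes are transcribed within minutes of a stimulus, without new protein synthesis, when kinase cascades activate factors already bound at their promoters, such as serum response factor and CREB. Their products include transcription factors that drive a later wave of genes, and phosphatases and RNA-binding proteins that end the response. The chaperones of the heat shock response are a separate arm, driven by heat shock factor. In microglia these genes respond to activating signals, and they are also known to be induced while tissue is dissociated and sorted. How long the cells were handled is not given in the sources used here.

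One conflict touches every comparison with anti-CTLA4. Its columns bear sheet numbers 29 and 30, but in the sample labels its libraries are 10 and 11, and the header's command uses 29 and 30 for knockouts of the interferon-gamma receptor. Going by their names, the columns are called the libraries labelled anti-CTLA4, and every direction in a comparison with them rests on that reading. The depth implied by low values was 84100000 to 108000000 reads per library, and the member value with the fewest implied reads, Fosb in IgG replicate 1, rested on 64. The microglial markers P2ry12, Tmem119 and Cx3cr1 were present in all libraries, with P2ry12 at 147 to 1088 FPKM. Markers of oligodendrocyte precursor-like and tumour cells summed to 192 to 657 FPKM with depletion, 39.2 to 102 FPKM under the anti-CTLA4 label and 766 to 1064 FPKM with IgG. Depletion replicate 1 stood apart, with monocyte markers summing to 1012 FPKM against 47.6 and 49.4 FPKM in depletion replicates 2 and 3. The Y-linked genes Eif2s3y, Uty, Ddx3y and Kdm5d summed to 9.53 to 14.5 FPKM with depletion, 0.514 to 2.635 FPKM under the anti-CTLA4 label and 1.81 to 3.35 FPKM with IgG, so sex and depletion cannot be told apart. In bulk RNA, fewer cells of a type and less RNA per cell cannot be told apart either.

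Most of the 37 genes were highest in a library labelled anti-CTLA4 and lowest in IgG replicate 1. An anti-CTLA4 library was the highest of the 7 for 24 genes. Anti-CTLA4 replicate 1 was highest for 9 and replicate 2 for 15, against 7.5% and 17.8% of all genes tested. Both of those libraries lay above the other 5 for 18 of the 37 genes, against 13.8% of all genes tested, and below the other 5 for 6 genes (Fosl2, Ier3, Dusp5, Gadd45g, Maff and Hspe1), against 41.3% of all genes tested. IgG replicate 1 was the lowest library for 24 genes, against 12.6% of all genes tested. Summed over the 37 genes, the level was 3924, 2877 and 3040 FPKM in the depletion libraries, 5284 and 6062 FPKM in the libraries labelled anti-CTLA4, and 1359 and 3561 FPKM in the IgG libraries. The sum was thus lowest in IgG replicate 1 and highest in both libraries labelled anti-CTLA4, while IgG replicate 2 lay among the depletion libraries.

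**Figure D1:**
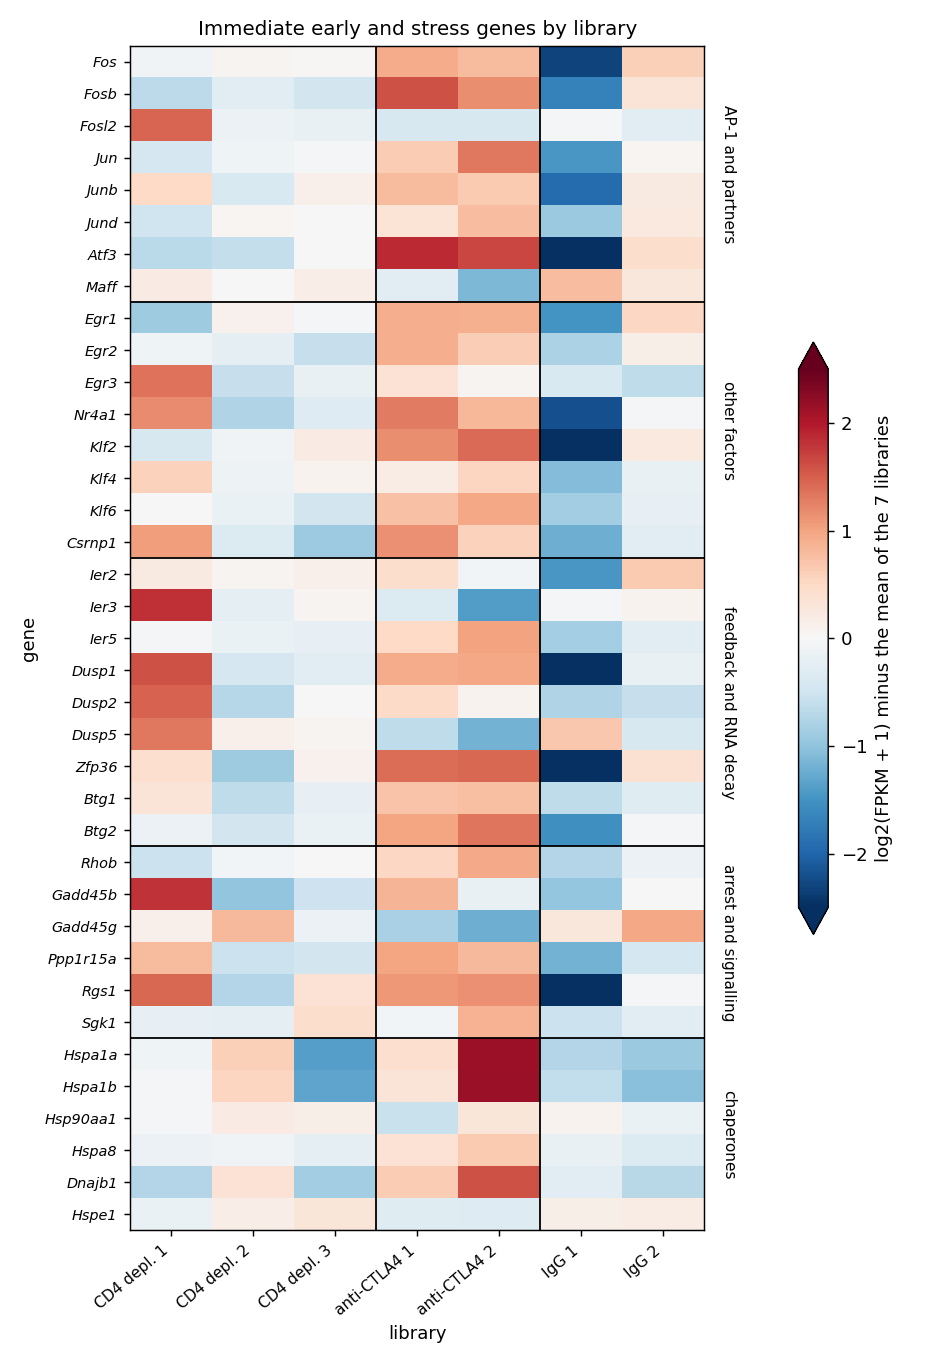
Level of each of the 37 genes (rows, grouped by role) in each of the 7 libraries (columns), as log2(FPKM + 1) minus the gene's mean over the libraries. The column of IgG 1 is blue for most transcription factors and feedback genes, both anti-CTLA4 columns are red for most genes, and depletion replicate 1 is red for a subset that includes Ier3, Dusp1 and Gadd45b.

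Most of the genes have short loci, which their choice did not use, and some promoter elements were more frequent among them than among all genes tested. Their median genomic span was 3750 bases against 19869 bases for all genes tested, and 32 of 37 spanned under 10000 bases, against 30.3% of all genes tested. RefSeq promoters (build GRCm38.p6, 250 bases before to 50 bases after the start) matched 31 of the 37 genes and 9836 of the genes tested, by symbol. The letters TGACG, the core of the cyclic AMP response element bound by CREB and ATF proteins, were found on either strand in 18 of 31 promoters (58.1%), against 32% of those of all genes tested. The full palindrome, TGACGTCA, which holds TGACG on each strand, was in 4 (Btg2, Dusp1, Maff and Ppp1r15a), 12.9% against 3.22%. A CArG box (CC, 6 of A or T, GG), the site of serum response factor, was in 3 (Egr2, Zfp36 and Dusp5), 9.68% against 1.27%. TATAAA was in 7 promoters, 22.6% against 7.11%. TGANTCA, the AP-1 site, was in 0 of 31 against 4.9%, and a heat shock element (GAA, TTC and GAA, or TTC, GAA and TTC, with 2 bases between units) was found in Hspe1 only, 3.23% against 0.437%. An NF-kB site (GGGA, any 4 bases, CC) was in 11, 35.5% against 26.6%. Each was searched on both strands. A match describes letters in this window and is no evidence of binding. No match does not mean that a gene lacks the site. Sites outside the window were not searched, and sites inside it that differ from these letters were not counted. Egr1, Egr3, Ier2, Hsp90aa1, Hspa8 and Rgs1 had no matched promoter and were not searched.

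Promoters are shown for 6 genes that the results below turn on and that hold one of the rarer elements, 5′ to 3′ on the gene's strand. Capitals mark the CArG box in Egr2 (chr10:67537680-67537979, plus strand) and Zfp36 (chr7:28379179-28379478, minus strand). In the others they mark the full cyclic AMP response element: Btg2 (chr1:134079106-134079405, minus strand), Dusp1 (chr17:26508423-26508722, minus strand), Ppp1r15a (chr7:45526219-45526518, minus strand) and Maff (chr15:79347270-79347569, plus strand).
Egr2: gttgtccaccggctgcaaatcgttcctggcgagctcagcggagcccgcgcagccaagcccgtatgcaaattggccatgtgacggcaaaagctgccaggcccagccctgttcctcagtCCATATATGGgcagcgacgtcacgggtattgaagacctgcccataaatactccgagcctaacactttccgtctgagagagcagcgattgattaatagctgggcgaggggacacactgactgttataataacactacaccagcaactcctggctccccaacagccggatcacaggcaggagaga
Zfp36: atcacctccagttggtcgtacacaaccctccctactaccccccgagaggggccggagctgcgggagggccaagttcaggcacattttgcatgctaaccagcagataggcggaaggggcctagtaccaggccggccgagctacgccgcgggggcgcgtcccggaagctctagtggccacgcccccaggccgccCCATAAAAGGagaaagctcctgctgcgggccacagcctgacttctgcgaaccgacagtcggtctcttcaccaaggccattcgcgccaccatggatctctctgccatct
Btg2: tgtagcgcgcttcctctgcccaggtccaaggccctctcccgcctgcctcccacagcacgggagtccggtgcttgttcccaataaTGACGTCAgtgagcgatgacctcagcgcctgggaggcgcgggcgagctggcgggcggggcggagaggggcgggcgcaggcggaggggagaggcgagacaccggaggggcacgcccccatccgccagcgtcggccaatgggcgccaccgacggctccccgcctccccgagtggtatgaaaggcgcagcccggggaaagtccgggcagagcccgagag
Dusp1: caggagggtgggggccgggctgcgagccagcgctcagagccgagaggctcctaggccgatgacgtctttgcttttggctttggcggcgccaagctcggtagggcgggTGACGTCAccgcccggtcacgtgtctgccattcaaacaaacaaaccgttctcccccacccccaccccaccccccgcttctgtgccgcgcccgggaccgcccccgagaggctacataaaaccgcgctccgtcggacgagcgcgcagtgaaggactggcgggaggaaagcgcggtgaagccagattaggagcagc
Ppp1r15a: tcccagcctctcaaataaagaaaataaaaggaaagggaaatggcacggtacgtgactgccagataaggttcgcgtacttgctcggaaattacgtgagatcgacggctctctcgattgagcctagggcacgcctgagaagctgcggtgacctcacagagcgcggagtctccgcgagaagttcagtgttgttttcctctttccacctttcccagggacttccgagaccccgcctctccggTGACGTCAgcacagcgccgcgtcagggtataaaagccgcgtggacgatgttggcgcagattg
Maff: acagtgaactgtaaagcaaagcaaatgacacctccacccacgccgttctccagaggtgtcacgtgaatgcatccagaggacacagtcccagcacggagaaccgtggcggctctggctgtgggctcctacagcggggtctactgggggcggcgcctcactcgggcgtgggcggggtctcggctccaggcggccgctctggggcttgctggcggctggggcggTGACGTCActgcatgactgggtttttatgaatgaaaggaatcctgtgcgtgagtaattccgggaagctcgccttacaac
The CArG box began 133 bases before the start in Egr2 and 58 bases before it in Zfp36. The response element began 166, 143, 12 and 29 bases before the start in Btg2, Dusp1, Ppp1r15a and Maff. Of these 4 genes, Btg2, Dusp1 and Ppp1r15a stood higher in both libraries labelled anti-CTLA4 than in either IgG library, and Maff stood lower. Dusp1 did not pass the test described below. These libraries did not overlap for 76.9% of all genes tested, 22.8% as higher and 54.1% as lower. Whether the element has a part in the direction was not tested.

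The first comparison asked how microglia under the checkpoint antibody differed from those under IgG. Of the 37 genes, 14 rose and 2 fell in the libraries labelled anti-CTLA4, and 21 did not pass the threshold of 0.05 (limma on log2(FPKM + 1), Benjamini-Hochberg over 13028 genes). Of all genes tested, 38% passed, 9.29% as higher and 28.8% as lower. The median log2 difference was 1.31 for the 37 genes and -0.31 for all genes tested. Jun, Fosb, Atf3, Klf2, Btg2 and Hspa1a were among those that rose, and Gadd45g and Maff were the 2 that fell. The calls over all genes were 1210 higher and 3747 lower as deposited, and 1922 higher and 2277 lower with median-of-ratios scaling, which moved the median of all genes to -0.07. Relative to the median of all genes, the median of the 37 was 1.62 higher as deposited, 1.67 with median-of-ratios scaling, 1.34 with quantile normalization and 1.40 after scaling to homeostatic microglia genes. After that last scaling, 2 of the 37 were higher and 4 lower, where 80 of all 13028 genes were higher and 5790 lower. The 16 homeostatic genes used for it had a median log2 difference of 0.83 as deposited.

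The comparison leaned on single libraries. The log2 difference without IgG replicate 1 was 0.26 for Fos, 0.50 for Junb, 0.39 for Egr1, 0.32 for Jund, 1.03 for Zfp36, 1.12 for Dusp1, 1.14 for Rgs1 and 0.34 for Gadd45b, none of which passed with it. Without IgG replicate 1 the median of the 37 genes was 0.86, and without IgG replicate 2 it was 1.59. In limma's fit, 0 of 13028 genes were called without IgG replicate 1 (4808 genes and 16 of the 37 had an unadjusted p under 0.05), and 0 without anti-CTLA4 replicate 2 (4493 and 13). Relative to the median of all genes, that of the 37 was 1.16 higher without IgG replicate 1 and 1.90 higher without IgG replicate 2. Depletion replicate 1 enters only through the shared spread. Without it, 23 of the 37 were higher and 4 lower, against 1644 and 4425 of all 13028 genes.

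AP-1 is a dimer of Fos and Jun family proteins and the best known product of the immediate early response. Fos stood at 405, 453 and 444 FPKM in the depletion libraries, 822 and 750.1 FPKM in the libraries labelled anti-CTLA4, and 86.3 and 656 FPKM in the IgG libraries. The IgG libraries differed 7.60-fold, one far below and the other close to the libraries labelled anti-CTLA4, and Fos did not pass, with a log2 difference of 1.72 (SE 0.78, limma adjusted p = 0.119). Jun stood at 205, 255 and 267 FPKM with depletion, 429 and 689 FPKM under the anti-CTLA4 label, and 99 and 282 FPKM with IgG. Its groups did not overlap, as for 34 of the 37 genes and 76.9% of all genes tested in this comparison. It rose by 1.70 (SE 0.47, limma adjusted p = 0.0295), or by 0.94 without IgG replicate 1, and its call was lost with quantile normalization (limma adjusted p = 0.0848). Junb, at 417, 226 and 320.5 FPKM with depletion, 513 and 466 FPKM under the anti-CTLA4 label, and 76.5 and 344 FPKM with IgG, did not pass (1.58, SE 0.63, limma adjusted p = 0.0839). Fosb, a partner with a low level, stood at 1.47, 2.24 and 1.83 FPKM (depletion), 10.7 and 7.74 FPKM (labelled anti-CTLA4) and 0.209 and 3.85 FPKM (IgG). It rose by 2.06 (SE 0.57, limma adjusted p = 0.0282), and by 1.06 without IgG replicate 1, whose value was 18.4-fold below that of IgG replicate 2. Jund, a Jun family subunit, ranged over 37.1 to 123 FPKM and did not pass (0.91, SE 0.39). Fosl2, a Fos relative, ranged over 1.29 to 7.39 FPKM, with a difference of -0.24 (SE 0.52) that did not pass.

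Atf3 and Maff are bZIP proteins that pair with AP-1 and related factors. Atf3, a factor induced by many kinds of stress, stood at 49.8, 52.9 and 81.1 FPKM in the depletion libraries, 295 and 259.6 FPKM in the libraries labelled anti-CTLA4, and 11.4 and 110.2 FPKM in the IgG libraries. Both libraries labelled anti-CTLA4 lay above all others, and IgG replicate 1 lay far below all others. Atf3 had the largest rise of the AP-1 group, 2.90 (SE 0.86, limma adjusted p = 0.0348), and 1.32 without IgG replicate 1. Maff, a small Maf protein that lacks an activation domain, went the other way. It stood at 4.02, 3.32 and 3.92 FPKM (depletion), 2.60 and 1.01 FPKM (labelled anti-CTLA4) and 6.48 and 4.30 FPKM (IgG), with each library labelled anti-CTLA4 below every other library, and fell by 1.23 on the log2 scale (SE 0.31, limma adjusted p = 0.0220). With quantile normalization it did not pass (limma adjusted p = 0.0658), and without anti-CTLA4 replicate 2 its difference was -0.81. In all, 3 of the 8 AP-1 genes and partners rose, 1 fell and 4 did not pass. The share of all genes tested was 9.29% higher and 28.8% lower. The median log2 difference was 1.64, against -0.31 for all genes tested.

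Of the 8 other early transcription factors, 3 rose and 5 did not pass, with a median log2 difference of 1.39. Among all genes tested, 9.29% were higher and 28.8% lower, with a median of -0.31. Egr1, a zinc finger factor of growth and activation signals, stood at 101, 201 and 180.2 FPKM with depletion, 354 and 351 FPKM under the anti-CTLA4 label, and 66.2 and 269 FPKM with IgG. Both libraries labelled anti-CTLA4 were above all others, the IgG libraries were 4.07-fold apart, and Egr1 did not pass (1.39, SE 0.61, limma adjusted p = 0.107). Egr2, its relative with roles in macrophages and Schwann cells and one of the CArG box promoters printed above, stood at 12.1, 11.1 and 8.41 FPKM with depletion, 25.4 and 20.6 FPKM under the anti-CTLA4 label, and 7.13 and 14.5 FPKM with IgG. It rose by 1.09 (SE 0.32, limma adjusted p = 0.0327), or 0.62 without IgG replicate 1. Klf6, a Krüppel-like zinc finger factor, stood at 44.1, 38.6 and 31.7 FPKM (depletion), 73.6 and 86.1 FPKM (labelled anti-CTLA4) and 23.3 and 37.5 FPKM (IgG) and rose by 1.40 (SE 0.26, limma adjusted p = 0.0111), or 1.07 without IgG replicate 1. Klf2, a relative that restrains inflammatory activation of macrophages and endothelium, stood at 20.4, 25.5 and 31.1 FPKM with depletion, 61.4 and 73.5 FPKM under the anti-CTLA4 label, and 3.84 and 32.3 FPKM with IgG. Its rise of 2.43 (SE 0.75, limma adjusted p = 0.0403) was 1.04 without IgG replicate 1, the lowest library by far. Nr4a1, an orphan nuclear receptor, ranged over 5.09 to 67.8 FPKM with a difference of 2.18 (SE 0.80). Its IgG libraries lay 5.17-fold apart, and the difference was 1.09 without IgG replicate 1. Csrnp1, a nuclear protein, ranged over 4.28 to 26.1 FPKM with 1.61 (SE 0.61). Klf4 ranged over 0.651 to 4.22 FPKM with 0.99 (SE 0.36) and Egr3 over 0.670 to 5.60 FPKM with 0.72 (SE 0.57). None of these 4 passed.

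The feedback, RNA decay and antiproliferative genes were grouped with Ier2, Ier3 and Ier5. Of these 9, 3 rose and 6 did not pass, with a median of 1.20. Over all genes tested, 9.29% were higher and 28.8% lower, with a median of -0.31. Zfp36 encodes tristetraprolin, which binds AU-rich messages such as that of tumour necrosis factor and leads to their decay. It stood at 309.7, 126 and 250.1 FPKM in the depletion libraries, 617 and 632 FPKM in the libraries labelled anti-CTLA4, and 30.9 and 304 FPKM in the IgG libraries. The libraries labelled anti-CTLA4 were close to each other at the top, and the IgG libraries lay 9.86-fold apart, and a log2 difference of 2.67 (SE 0.93) did not pass (limma adjusted p = 0.0574). Dusp1, a nuclear phosphatase that switches off MAP kinases, stood at 471, 116 and 128 FPKM with depletion, 296 and 303 FPKM under the anti-CTLA4 label, and 24.4 and 137 FPKM with IgG. Depletion replicate 1 was the highest library and IgG replicate 1 the lowest, a 19.35-fold range, and its difference of 2.34 (SE 0.88) did not pass. Btg2 and Btg1, antiproliferative proteins that bind the deadenylase that shortens mRNA tails, both rose. Btg2 stood at 96.7, 77.3 and 95.5 FPKM (depletion), 213 and 271 FPKM (labelled anti-CTLA4) and 36 and 105 FPKM (IgG), a rise of 1.95 (SE 0.44, limma adjusted p = 0.0165), or 1.19 without IgG replicate 1. Btg1 stood at 39.2, 19.7 and 26.7 FPKM (depletion), 51.2 and 52.6 FPKM (labelled anti-CTLA4) and 19.5 and 24.8 FPKM (IgG), a rise of 1.20 (SE 0.30, limma adjusted p = 0.0206). Its libraries were close within the anti-CTLA4 label (51.9 ± 0.996, SD, n = 2) and within IgG (22.2 ± 3.73, SD, n = 2).

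Ier5, an immediate early protein linked to the heat shock response, stood at 58.7, 53.5 and 52 FPKM with depletion, 84.6 and 121 FPKM under the anti-CTLA4 label, and 32.9 and 49.2 FPKM with IgG, and rose by 1.31 (SE 0.24, limma adjusted p = 0.0114). Ier3, an early protein that limits cell death, had another pattern, at 510, 120.2 and 149 FPKM with depletion, 113 and 53.9 FPKM under the anti-CTLA4 label, and 140.4 and 152 FPKM with IgG. Depletion replicate 1 was far above the rest and both libraries labelled anti-CTLA4 were the lowest, with a difference of -0.89 (SE 0.66) that did not pass. Dusp5, a nuclear phosphatase of ERK, ranged over 1.95 to 15.7 FPKM in the same order of groups (-1.04, SE 0.51), and did not pass. Dusp2, another nuclear MAP kinase phosphatase, ranged over 3.63 to 20.6 FPKM (0.95, SE 0.61), and Ier2 over 47.4 to 208 FPKM (0.60, SE 0.59), with neither past the threshold. Ier2 turned to -0.46 without IgG replicate 1.

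**Figure D2:**
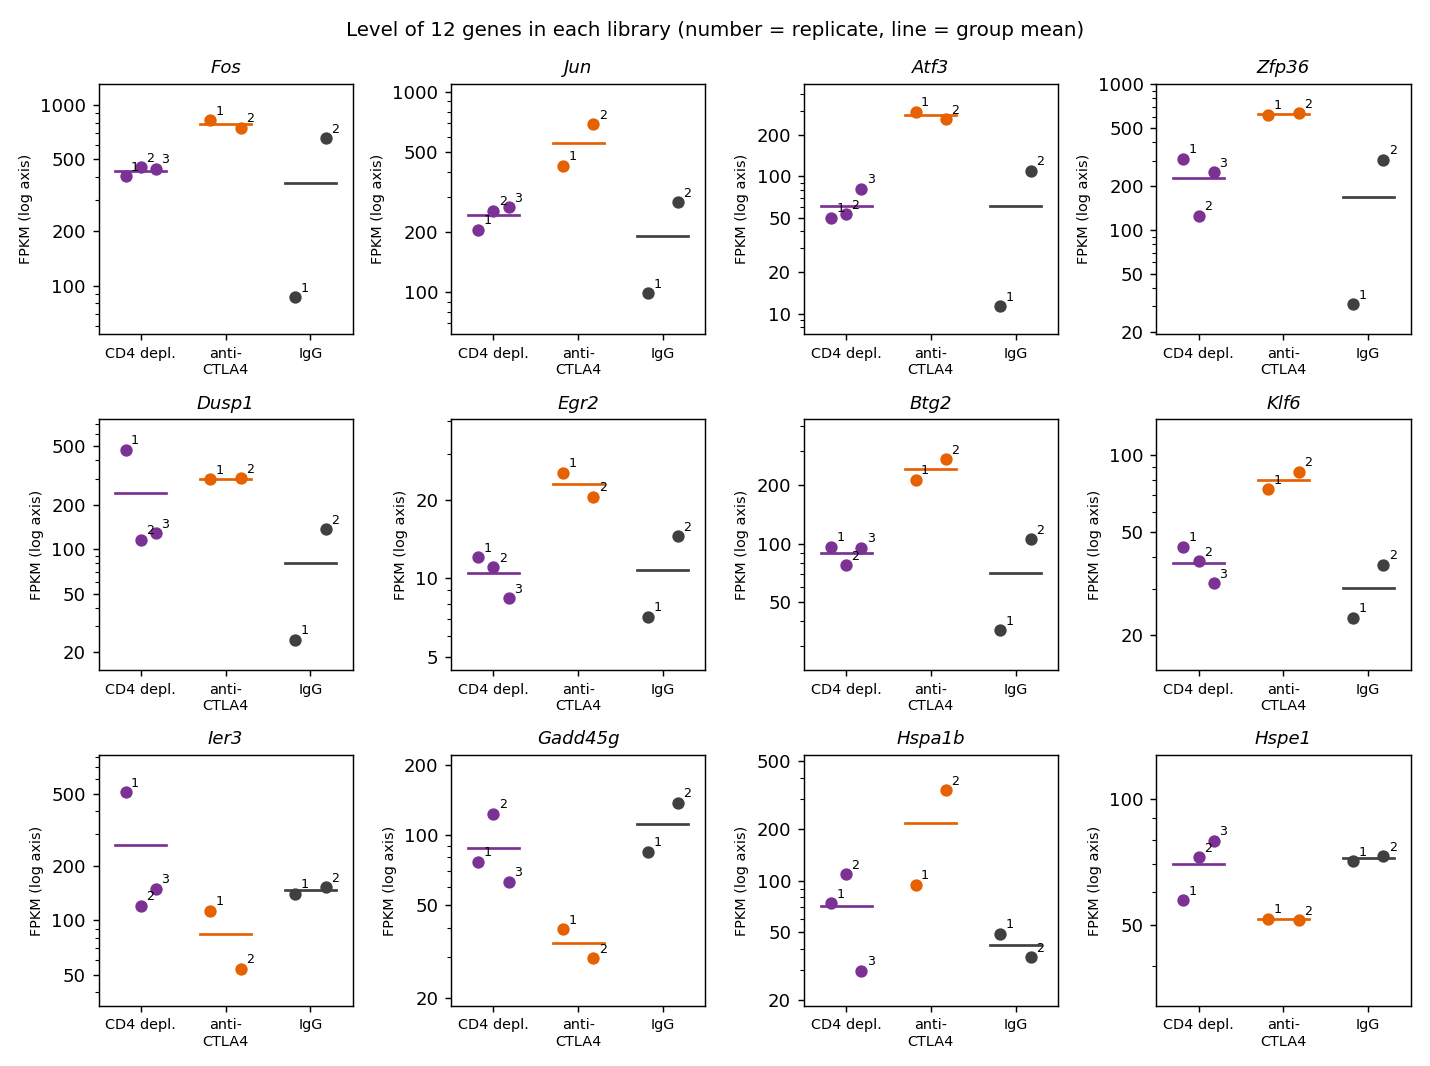
FPKM on a log axis for 12 of the genes in the CD4 depletion, labelled anti-CTLA4 and IgG groups, with 1 point per library (number, replicate) and a line at each group mean. Fos, Atf3, Zfp36 and Dusp1 show IgG replicate 1 far below IgG replicate 2, while Gadd45g, Ier3 and Hspe1 have their lowest libraries under the anti-CTLA4 label.

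Arrest and signalling genes gave 2 rises and 1 fall among 6, with a median of 0.99. All genes tested had 9.29% higher and 28.8% lower, with a median of -0.31. Ppp1r15a, the GADD34 subunit that directs a phosphatase to the translation factor eIF2α and so restarts protein synthesis after stress, stood at 53.3, 20.6 and 21.7 FPKM with depletion, 60.6 and 54.1 FPKM under the anti-CTLA4 label, and 12.8 and 22.1 FPKM with IgG. Depletion replicate 1 lay just below both anti-CTLA4 libraries, and the rise against IgG was 1.70 (SE 0.46, limma adjusted p = 0.0259). Rhob, an early-induced small GTPase of endosomes, stood at 58.1, 80.5 and 85.7 FPKM with depletion, 122 and 164 FPKM under the anti-CTLA4 label, and 50.4 and 76.4 FPKM with IgG and rose by 1.18 (SE 0.28, limma adjusted p = 0.0191). Gadd45g, a stress and growth arrest protein that activates a MAP kinase kinase kinase, stood at 76.8, 123 and 62.9 FPKM with depletion, 39.4 and 29.6 FPKM under the anti-CTLA4 label, and 84.8 and 137 FPKM with IgG. Each library labelled anti-CTLA4 lay below every other library, and the gene fell by 1.63 on the log2 scale (SE 0.36, limma adjusted p = 0.0150). Its relative Gadd45b ranged over 6.65 to 51.9 FPKM with 0.81 (SE 0.87) and did not pass. Sgk1, a kinase induced by serum and glucocorticoids, stood at 105, 103 and 163 FPKM (depletion), 115 and 222 FPKM (labelled anti-CTLA4) and 82.7 and 99.6 FPKM (IgG), with a difference of 0.81 (SE 0.35) that did not pass. Rgs1, which shortens signals from G protein-coupled receptors, spanned 4.03 to 126 FPKM, and its IgG libraries lay 11.2-fold apart. Its difference of 2.74 (SE 1.02), among the larger of the 37, did not pass.

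The chaperones split. Of 6, 3 rose and 3 did not pass, with a median of 1.18. Of all genes tested, 9.29% were higher and 28.8% lower, with a median of -0.31. Hspa1a and Hspa1b, neighbouring genes on chromosome 17, both encode the inducible HSP70. In GENCODE transcripts, 58.8% of the windows of 50 bases in Hspa1a also occur in Hspa1b, so their values are not independent and reads may have been split between them. Hspa1a stood at 49.8, 81.1 and 20.2 FPKM with depletion, 72.5 and 238 FPKM under the anti-CTLA4 label, and 31.7 and 27.6 FPKM with IgG, and Hspa1b at 73.6, 109 and 29.7 FPKM (depletion), 94.9 and 338 FPKM (labelled anti-CTLA4) and 48.9 and 35.8 FPKM (IgG). Anti-CTLA4 replicate 2 was 3.29-fold and 3.57-fold above replicate 1 for these genes. Hspa1a rose by 2.12 (SE 0.70, limma adjusted p = 0.0474), or 1.26 without anti-CTLA4 replicate 2 and 2.97 without replicate 1, and did not pass with quantile normalization (limma adjusted p = 0.0532). Hspa1b did not pass (2.08, SE 0.71, limma adjusted p = 0.0529). Dnajb1, the HSP40 partner that feeds clients to HSP70, stood at 24.9, 54.2 and 22.4 FPKM (depletion), 65.4 and 128 FPKM (labelled anti-CTLA4) and 34.9 and 25.4 FPKM (IgG) and rose by 1.59 (SE 0.47, limma adjusted p = 0.0338). Hspa8, the HSP70 form that cells make without stress, stood at 112, 116 and 104 FPKM with depletion, 159.9 and 196 FPKM under the anti-CTLA4 label, and 109 and 97.1 FPKM with IgG. It rose by 0.78 (SE 0.18, limma adjusted p = 0.0164), a call that ended and turned to -0.14 after scaling to homeostatic microglia genes. Hsp90aa1, the inducible HSP90, at 29.6 to 54.8 FPKM, and Hspe1, the mitochondrial HSP10, at 51.4 to 79.6 FPKM, did not pass (-0.10 (SE 0.28) and -0.48 (SE 0.18)). Hsp90aa1 turned to 0.03 without IgG replicate 1 and 0.34 without anti-CTLA4 replicate 1. IgG replicate 1 was not low for this group: 1 of its 6 genes was higher in IgG replicate 2 than in IgG replicate 1.

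**Figure D3:**
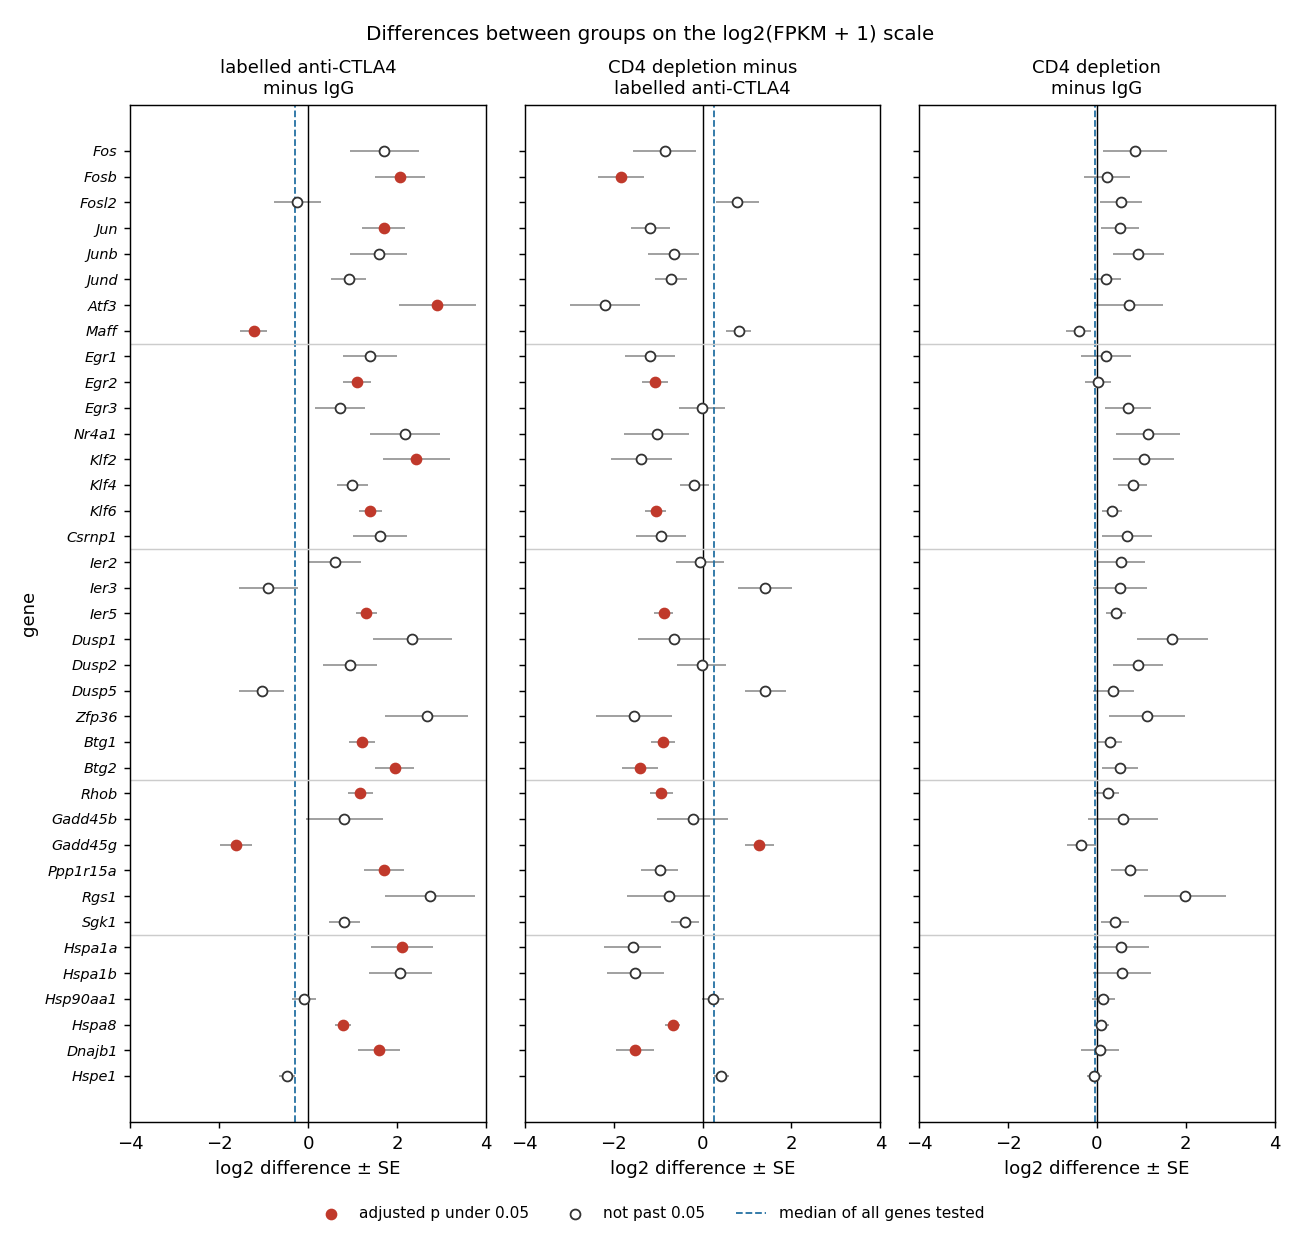
Log2 difference with its standard error for each of the 37 genes in the 3 comparisons, with filled points past a limma adjusted p of 0.05 and a dashed line at the median of all 13028 genes. In the left panel 14 filled points lie above 0 and 2 below, in the middle panel 1 above and 9 below, and in the right panel none is filled.

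The second comparison asked what differed when CD4 T cells were depleted under the antibody. It shares the 2 libraries labelled anti-CTLA4 with the first, so opposite signs in both are not separate observations. Of the 37 genes, 9 fell and 1 rose with depletion and 27 did not pass, where 29.4% of all genes tested passed, 6.59% as lower and 22.8% as higher. The median log2 difference was -0.86, against 0.27 for all genes tested. That of the 16 homeostatic microglia genes was -0.97, with 4 lower and 0 higher. The fallers were Fosb, Egr2, Klf6, Btg1, Btg2, Ier5, Rhob, Hspa8 and Dnajb1, and Gadd45g rose. All 10 were also called in the first comparison. After scaling to homeostatic microglia genes the median of the 37 turned to 0.09, while that of all genes was 0.98. Of the 37, 7 were then higher and 0 lower, against 6630 and 96 of all 13028 genes. With median-of-ratios scaling 0 of the 37 were higher and 9 lower, against 1669 and 1437 of all genes tested. The median of the 37 relative to that of all genes was -1.12 as deposited, -1.17 with median-of-ratios scaling, -0.76 with quantile normalization and -0.89 after scaling to the homeostatic genes.

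Among the fallers, Fosb had the largest change, -1.84 (SE 0.52, limma adjusted p = 0.0372), with means of 1.85 ± 0.388 FPKM (SD, n = 3) with depletion and 9.21 ± 2.08 FPKM (SD, n = 2) under the anti-CTLA4 label. Dnajb1 followed with -1.52 (SE 0.43, limma adjusted p = 0.0361), at 33.9 ± 17.7 FPKM (SD, n = 3) with depletion against 96.8 ± 44.4 FPKM (SD, n = 2). Btg2 fell to 89.8 ± 10.8 FPKM (SD, n = 3) with depletion, against 242 ± 41.6 FPKM (SD, n = 2), with -1.42 (SE 0.40, limma adjusted p = 0.0379). Egr2 and Klf6 had -1.07 (SE 0.29, limma adjusted p = 0.0330) and -1.05 (SE 0.23, limma adjusted p = 0.0202). The groups of these 5 genes did not overlap, as for 24 of the 37 genes and 60.5% of all genes tested. With quantile normalization the limma adjusted p of Btg2 was 0.0530. Rhob, Btg1 and Ier5 had -0.93 (SE 0.26), -0.90 (SE 0.27) and -0.88 (SE 0.22), and Hspa8 -0.67 (SE 0.16). After scaling to the homeostatic genes these 4 stood at 0.01, 0.03, 0.06 and 0.27, none past the threshold. Gadd45g, the arrest gene low under the anti-CTLA4 label, rose by 1.28 (SE 0.33, limma adjusted p = 0.0283) to 87.6 ± 31.4 FPKM (SD, n = 3). Atf3, Jun and Zfp36 had differences of -2.19 (SE 0.79), -1.17 (SE 0.43) and -1.54 (SE 0.85), and did not pass. In limma's fit, 0 of the 37 passed without anti-CTLA4 replicate 2 (7 at an unadjusted p under 0.05) or without depletion replicate 3 (14), and 1 was lower without depletion replicate 2. Of all genes tested, 917 passed without depletion replicate 3, and 407 were lower without depletion replicate 2. Without anti-CTLA4 replicate 1 the median of the 37 was -0.82, against 0.28 for all genes tested. Without depletion replicate 1, 11 of the 37 were lower and 2 higher, against 1158 and 4133 of all genes tested.

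The third comparison set depletion against IgG. In it 0 of the 37 genes and 0 of 13028 genes passed in limma's fit, with 0% called, 1 of the 37 and 851 genes at an unadjusted p under 0.05, and a smallest adjusted p over all genes of 0.315. The median log2 difference of the 37 was 0.53 against -0.04 for all genes tested. Leaving out IgG replicate 1 gave a median of 0.11, and leaving out IgG replicate 2 gave 0.78. The largest differences were in Rgs1, 1.98 (SE 0.93, limma adjusted p = 0.710), and Dusp1, 1.70 (SE 0.80, limma adjusted p = 0.710), both of which had their lowest value in IgG replicate 1 and their highest in depletion replicate 1. The depletion and IgG libraries did not overlap in 4 genes: Ier5, Klf4 and Sgk1, which were higher with depletion, and Maff, which was lower. Over all genes tested, 27.2% did not overlap in this comparison.

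Libraries of the same group differed more in these genes than in most. Their median within-group SD was 0.67 on the log2 scale, against 0.23 for all genes tested. An SD below 0.67 was found in 95.1% of genes tested. The 37 genes also had a higher level, with a median of 65.4 FPKM against 7.26 FPKM, and the comparison was not matched for level. The SD was largest for Rgs1 (1.37), Zfp36 (1.25), Dusp1 (1.18), Gadd45b (1.17) and Atf3 (1.15), and smallest for the chaperones Hspa8 (0.13) and Hspe1 (0.17). Between the IgG libraries, 18 of 37 genes were over 2 times as high in replicate 2 as in replicate 1, and 28 were higher. By log2(FPKM + 1), 14 of the 37 were more than 1 higher in replicate 2, against 1.29% of all genes tested. The median difference was 0.74 on the log2 scale, against 0.02 for all genes tested, of which 52.9% were higher. After Fosb, Rgs1 and Zfp36, the next in size were Atf3 at 9.66-fold, Klf2 at 8.40-fold, Fos at 7.60-fold and Dusp1 at 5.62-fold. The 29 other immediate early genes tested had a median difference of 0.06 between these libraries, the 30 other chaperone genes -0.06, and the 18 upstream genes -0.04. Homeostatic microglia markers summed to 12907 FPKM in IgG replicate 1 and 10330 FPKM in IgG replicate 2, tumour-cell markers to 766 and 1064 FPKM, and erythroid genes to 328 and 47.4 FPKM. Their part in the difference was not tested.

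**Figure D4:**
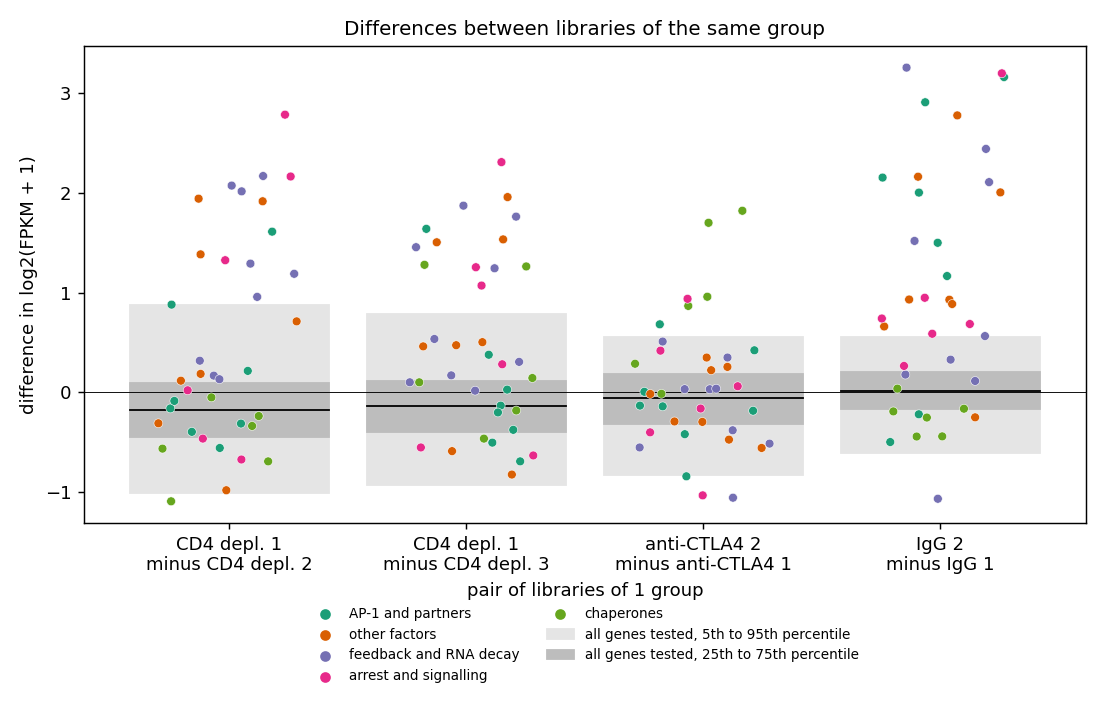
Difference in log2(FPKM + 1) between libraries of the same group for the 37 genes (points, coloured by role), over the 5th to 95th and 25th to 75th percentiles of all 13028 genes (grey bars) and their median (line). For IgG 2 minus IgG 1, 23 of 37 points lie above the 95th percentile of all genes; for depletion 1 minus depletion 2 and minus depletion 3, 14 and 13 do, and for anti-CTLA4 2 minus anti-CTLA4 1, 6 do.

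Within the depletion group another subset stood out. Depletion replicate 1 was over 2 times as high as either other depletion library for 11 of the 37 genes, against 3.98% of all genes tested. They were Gadd45b (5.37-fold over the next depletion library), Egr3 (4.39), Fosl2 (4.24), Dusp1 (3.69), Ier3 (3.41), Dusp2 (3.00), Nr4a1 (2.93), Csrnp1 (2.80), Dusp5 (2.49), Ppp1r15a (2.45) and Rgs1 (2.12). Fos, Egr1, Jun and Atf3 were not among them: depletion replicate 1 had the lowest value of the 3 for each, with Fos at 405 FPKM against 453 and 444 FPKM. All 9 genes of the feedback group were higher in depletion replicate 1 than in depletion replicate 2 and than in depletion replicate 3. The same held for 32.2% and 35.5% of all genes tested. Of the 6 chaperones, 0 were higher than in depletion replicate 2 and 4 than in depletion replicate 3, with Hspa1a and Hspa1b over 2 times as high as in depletion replicate 3. In the same library, 6 of the 8 tested monocyte markers were over 2 times as high as in depletion replicate 2, with Ccr2 at 43.1 FPKM against 1.02 and 1.30 FPKM, and neutrophil markers summed to 470 FPKM against 10.9 and 41.6 FPKM. Homeostatic microglia markers summed to 6656 FPKM there, against 14111 and 12913 FPKM. The part of these cells in the pattern was not tested.

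By their medians, other genes of the same pathways did not follow the 37 as a group. Of all genes tested, 9.29% were higher and 28.8% lower under the anti-CTLA4 label than with IgG, with a median of -0.31. Of 18 upstream and partner genes, 1 rose and 2 fell under the anti-CTLA4 label, with a median of -0.03. Elk1, a partner of serum response factor, had -1.40 (SE 0.23, limma adjusted p = 0.00995), and Crem, a relative of CREB, -1.06 (SE 0.20, limma adjusted p = 0.0117). Of 29 other immediate early genes, 6 rose and 10 fell, with a median of -0.39. Dusp4, a phosphatase of MAP kinases, stood at 20.1, 32.6 and 34.6 FPKM with depletion, 4.94 and 1.58 FPKM under the anti-CTLA4 label and 39 and 25.6 FPKM with IgG, a difference of -3.06 (SE 0.43, limma adjusted p = 0.00936). Plk2, an early-induced kinase that is also a p53 target, had -2.45 (SE 0.38, limma adjusted p = 0.00942). Of 30 other heat shock and chaperone genes, 2 rose and 15 fell, with a median of -0.52. They included Cryab, a small heat shock protein, with 1.48 (SE 0.40, limma adjusted p = 0.0262), and Cct5, a chaperonin subunit, with -1.43 (SE 0.26, limma adjusted p = 0.0108). With median-of-ratios scaling these lists had 5 higher and 2 lower, 7 and 7, and 3 and 10, with medians of 0.24, -0.09 and -0.22. After scaling to the homeostatic genes they had 0 higher and 3, 13 and 19 lower, where 80 of all 13028 genes were higher and 5790 lower.

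With depletion against the anti-CTLA4 label the same lists gave 2 higher and 2 lower of 18, 9 and 2 of 29, and 12 and 2 of 30, with medians of -0.0022, 0.58 and 0.48 against 0.27 for all genes tested. Of all genes tested, 22.8% were higher and 6.59% lower in that comparison. Dusp4 had 2.91 (SE 0.39, limma adjusted p = 0.0118) and Ier5l, a relative of Ier5, 1.83 (SE 0.51, limma adjusted p = 0.0365). With median-of-ratios scaling the counts were 1 and 2, 4 and 4, and 8 and 2, with medians of -0.20, 0.41 and 0.30. Of the markers of oligodendrocyte precursor-like and tumour cells, 9 of 10 were lower under the anti-CTLA4 label than with IgG (median -3.13) and 8 of 10 were higher with depletion than under the label (median 2.17). Of the 5 fibroblast markers, 5 were higher under the label than with IgG (median 3.52) and 3 lower with depletion than under the label (median -2.42), the direction of most of the 37 genes. None of the defining markers of either list was at 0 in every library. Fibroblast markers summed to 19.98 to 152 FPKM with depletion, 161 to 328.5 FPKM under the label and 8.58 to 19.7 FPKM with IgG. Of the 5 erythroid genes, 4 were higher under the label than with IgG (median 2.84), and none passed with depletion against the label (median -1.69). Of the 8 endothelial and mural markers, 3 were higher under the label than with IgG (median 0.81) and 2 lower with depletion than under the label (median -0.18). None of the 5 neutrophil markers passed in either comparison (medians 1.86 and 0.26). The part of any of these cell types in the levels of the 37 genes was not tested.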

How the data were processed

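The deposited file holds FPKM values per gene in 7 libraries and, per the file headers, was made by the authors with HOMER by counting reads over exons on both strands, with 1 transcript kept per gene and scaling to library size; per the submitters' processing notes, STAR, HOMER and DESeq2 were used with build mm10 (tool versions: not given in the sources used here). Low values lay at whole reads in 100% of 272 to 304 values per library (within 0.1 read, transcripts of 200 to 800 bases, up to 20 reads). No count test was run, since FPKM was deposited. The header names 40 libraries, of which 33 have no column.

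The scale of every test and fold change was log2(FPKM + 1), which understates changes of low genes. limma 3.58.1 (R 4.3.3) was used. Genes at 1 FPKM in at least 2 libraries were tested, all 3 groups shared 1 spread with a mean-variance trend, and 3 two-sided comparisons were adjusted by Benjamini-Hochberg, threshold 0.05. Libraries per group are too few for an exact permutation test to reach it. The test was checked on simulated data. The replicate numbers of the labels were not used to pair libraries. Alternatives were a pseudocount of 0.25, no filter, 3 scalings (median of ratios, quantile, and the mean level of 16 homeostatic microglia genes), a replicate block and leaving out each library.

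The 37 members, the other lists and the tests were chosen with earlier results of these data known. Values per library are given for every member called in any comparison and for the 3 highest of each of 5 roles (24 members). The other 13 are given by range. Genes of other lists are named for the largest called differences. TATAAA was searched after the other motifs. The sequences are from RefSeq, build GRCm38.p6. Ppp1r15a overlaps Tulp2 by 11 bases on the other strand, and Tulp2 was at most 0.428 FPKM. No other member overlapped a listed gene.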

Additional observations from a re-analysis of the deposited data

How the results depend on the processing

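For the labelled anti-CTLA4 group against IgG, 14 genes higher became 6 without the filter on low values, 2 after scaling to homeostatic microglia genes and 7 with the replicate block. Over all genes, 1210 higher became 991 (of 19667 then tested), 80 and 597 in that order. With quantile normalization the 14 became 13: Jun and Hspa1a were lost and Klf4 was gained. With median-of-ratios scaling the 14 became 18: Jund, Klf4, Sgk1 and Hspa1b were gained. All genes tested then had 1928 and 1922 higher. The 2 lower became 1 with quantile normalization, 4 after scaling to the homeostatic genes and 3 with the block. Over all genes, 3747 lower became 2081, 5790 and 2068 in that order. The median of the 37, 1.31, became 1.61 with median-of-ratios scaling and 0.40 after scaling to the homeostatic genes. For depletion against anti-CTLA4, 9 lower became 2 without the filter, and 0 after scaling to the homeostatic genes and with the block. Over all genes, 858 lower became 616, 96 and 0 in that order. The 1 higher became 2 with a pseudocount of 0.25 and 7 after scaling to the homeostatic genes. It became 0 without the filter, with median-of-ratios scaling, with quantile normalization and with the block. Over all genes, 2969 higher became 3142 with the pseudocount and 6630 after scaling to the homeostatic genes. Without the filter, with median-of-ratios scaling, with quantile normalization and with the block, 1861, 1669, 1452 and 0 were higher. The median of the 37, -0.86, became -1.11 with median-of-ratios scaling and 0.0947 after scaling to the homeostatic genes. Over all genes, 4957 called in the first comparison became 2665 with the block, and 3827 in the second became 2477 without the filter, 6726 after scaling to the homeostatic genes and 0 with the block (4304 at an unadjusted p under 0.05 in limma's fit). Among the members called as deposited, scaling to the homeostatic genes turned the sign of Hspa8 (-0.14) in the first comparison. In the second it turned those of Ier5 (0.0632), Rhob (0.0124), Btg1 (0.0343) and Hspa8 (0.27). None of these then passed the threshold. Signs of members not called turned too, such as Jund, Ier2, Sgk1 and Gadd45b in the first comparison. In the second, Fos, Junb, Jund, Dusp1, Ier2, Rgs1 and Sgk1 were among them. The scaling divided values by 1.24 and 2.05 in the libraries labelled anti-CTLA4. The divisors were 0.950 and 0.744 with IgG and 0.539, 1.08 and 0.959 with depletion. Differences thus shifted down in the first comparison and up in the second, so that smaller ones could change sign. Why the homeostatic genes differed between groups was not tested.

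Leaving out each library gave 0 to 6069 genes called, 0 to 23 of the 37 higher, 0 to 4 lower and medians of 0.86 to 1.59 in the first comparison. The second gave 0 to 5291 genes, 0 to 2 higher, 0 to 13 lower and medians of -0.93 to -0.71, and the third 0 genes throughout and medians of 0.11 to 0.78. A group left with 1 library is assumed to vary like the others. Same-numbered libraries of different groups deviated from their group means with correlations of -0.205 to 0.123 over genes. In a group of 2 libraries the deviations mirror each other, so these values cannot show whether the numbers pair libraries. With the IgG numbers crossed in the block, chosen after seeing the data, 3817 genes were called in the first comparison and 0 in the second (4566 at an unadjusted p under 0.05). In the third comparison the counts of calls stayed at 0 under every alternative run.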

Other observations

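Glucocorticoid-induced genes and targets of the integrated stress response and p53 are further arms of the stress response. Of all genes tested, 22.8% were higher and 6.59% lower with depletion than under the anti-CTLA4 label. Under the label, 9.29% were higher and 28.8% lower than with IgG. Of 11 glucocorticoid-induced genes tested, 3 were higher and 1 lower with depletion than under the anti-CTLA4 label (median 0.76), and 1 was higher and 2 lower under the label than with IgG (median 0.09). Klf9, a Krüppel-like factor of that group, stood at 12.5, 8.47 and 9.26 FPKM with depletion, 3.30 and 1.56 FPKM under the label and 10.2 and 10.7 FPKM with IgG. Depletion replicate 1 was higher than depletion replicate 2 for 10 of the 11, against 32.2% of all genes tested. Of 16 integrated stress and p53 targets, 5 were higher and 1 lower with depletion than under the label (median 0.19), and 2 were higher and 4 lower under the label than with IgG (median -0.05). Asns, asparagine synthetase, stood at 29.96, 58.5 and 48.8 FPKM with depletion, 12.1 and 5.60 FPKM under the label and 35.9 and 44.8 FPKM with IgG. With median-of-ratios scaling the medians were 0.52 and 0.38 for the first list and -0.04 and 0.20 for the second, so the sign of the second list's small medians depends on the scaling.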
